A study of Homo sapiens with 5 samples.

Results

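The 10 genes described here belong to bone morphogenetic protein (BMP) signalling: the ligands BMP2 and BMP4, the secreted antagonist GREM1, the receptors BMPR1A and BMPR2, the pseudoreceptor BAMBI, the inhibitory SMAD6 and the target genes ID1, ID2 and ID3. They were chosen by name and found through their Ensembl identifiers, and all 10 were present among the 19936 genes measured in each library. LX-2 is an immortalised human cell line derived from hepatic stellate cells, the liver cells that lay down collagen in fibrosis, and its RNA was taken 48 h after siRNA was introduced. The siLIX1L group (3 libraries) received siRNA against LIX1L, a gene for a putative RNA-binding protein, and the control group (2 libraries) received control siRNA. No other treatment, and no added BMP ligand, is named in the labels. Both groups are the same cell line, and whether the libraries of a group are separate cultures is not stated, so the p-values below reflect no more than the variation among these 5 libraries, some of which may be technical. The comparison asks how transcripts of the pathway differed when LIX1L was low.

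BMP ligands bind paired type I and type II serine/threonine kinase receptors, which phosphorylate SMAD1, SMAD5 and SMAD9; these join SMAD4 and enter the nucleus. The ID genes are among the most direct targets of this branch, and their products are helix-loop-helix proteins without a DNA-binding region that hold E proteins in inactive pairs. SMAD6 and BAMBI are themselves induced by the pathway and dampen it, and in mouse stellate cells BAMBI is known as a brake on TGF-β receptors, while GREM1 traps BMP ligands outside the cell and is known as a gene of activated fibroblasts.

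ID1, ID2, ID3, SMAD6 and BAMBI were all highest in the same library, control 2, and were picked after this was seen. All the listed stellate cell markers except ACTA2 were also highest there, among them COL1A1 and SPARC. RUNX2, another listed target, and the members BMP4 and GREM1 were highest in control 1. How many of all genes were highest in control 2 was not counted. The promoters of the 5 targets and inhibitors are shown first, and a link of their sequences to the levels was not tested. The windows are from RefSeq on GRCh38.p14, from 250 bases before to 50 bases after each start, 5′ to 3′ on the gene's strand. ID1 lies at chr20:31605039-31605338 (plus strand), ID2 at chr2:8681806-8682105 (plus), ID3 at chr1:23559452-23559751 (minus), SMAD6 at chr15:66701986-66702285 (plus) and BAMBI at chr10:28677271-28677570 (plus). Capitals mark every match, on either strand, to GGCGCC (a GC-rich element that BMP-activated SMADs bind), GTCTAGAC (the palindromic SMAD element), CAGACA (a SMAD box), ATTGG (the CCAAT box read from the other strand) or TATAAA.
ID1: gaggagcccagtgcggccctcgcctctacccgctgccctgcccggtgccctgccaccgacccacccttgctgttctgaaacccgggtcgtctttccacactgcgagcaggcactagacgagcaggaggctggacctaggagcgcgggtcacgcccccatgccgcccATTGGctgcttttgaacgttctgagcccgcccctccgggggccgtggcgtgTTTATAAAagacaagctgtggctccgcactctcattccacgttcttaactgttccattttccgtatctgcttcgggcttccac
ID2: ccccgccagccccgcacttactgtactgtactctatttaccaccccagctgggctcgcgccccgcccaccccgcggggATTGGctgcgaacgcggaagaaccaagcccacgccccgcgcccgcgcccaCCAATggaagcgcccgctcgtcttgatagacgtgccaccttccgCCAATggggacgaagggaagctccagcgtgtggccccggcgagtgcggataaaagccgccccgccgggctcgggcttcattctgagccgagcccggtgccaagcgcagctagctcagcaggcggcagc
ID3: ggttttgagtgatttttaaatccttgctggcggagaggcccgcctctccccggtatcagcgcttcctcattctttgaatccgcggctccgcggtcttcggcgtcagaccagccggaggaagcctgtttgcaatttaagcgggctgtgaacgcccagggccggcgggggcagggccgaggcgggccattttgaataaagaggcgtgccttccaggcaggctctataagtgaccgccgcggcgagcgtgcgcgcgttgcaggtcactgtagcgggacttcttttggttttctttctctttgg
SMAD6: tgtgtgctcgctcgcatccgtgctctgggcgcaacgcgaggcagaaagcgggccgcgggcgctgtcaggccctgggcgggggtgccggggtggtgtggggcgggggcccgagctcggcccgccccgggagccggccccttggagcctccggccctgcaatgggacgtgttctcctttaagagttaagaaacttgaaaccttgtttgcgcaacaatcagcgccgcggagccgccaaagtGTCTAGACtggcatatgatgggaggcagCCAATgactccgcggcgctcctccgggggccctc
BAMBI: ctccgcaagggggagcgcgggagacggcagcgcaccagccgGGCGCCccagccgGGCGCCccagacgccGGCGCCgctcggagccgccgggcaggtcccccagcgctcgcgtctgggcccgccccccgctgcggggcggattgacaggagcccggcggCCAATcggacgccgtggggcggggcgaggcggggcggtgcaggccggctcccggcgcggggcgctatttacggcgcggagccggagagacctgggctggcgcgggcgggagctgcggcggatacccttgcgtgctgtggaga

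The palindrome GTCTAGAC occurred in the SMAD6 window at -12 from the start, and in 71 of all 35116 RefSeq windows (0.202%). The BAMBI window held 3 copies of GGCGCC, beginning at -209, -196 and -181 from the start; 19.2% of all windows held at least 1. None of the 3 SMAD sequences (CAGACA was in 16.9% of all windows) was found in the windows of ID1, ID2 or ID3, which says only that these letters are not within this stretch. The ID1 window held ATTGG at -84 and TATAAA at -31, overlapping its reverse form at -33, and the ID2 window held ATTGG or CCAAT at -172, -122 and -78; 34.6% of all windows held this element and 11.5% held TATAAA. RefSeq windows were found for 9 of the 10 members. Of the members not shown, BMP4, GREM1 and BMPR2 also had GGCGCC and CAGACA, on either strand, in their windows.

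LIX1L itself had 6.60, 7.08 and 3.65 RPM (reads per 1000000 counted reads) in siLIX1L 1, 2 and 3, against 26.4 and 35.5 RPM in control 1 and 2, and it fell in the siLIX1L group (limma difference on log2(FPKM + 1) -0.87, SE 0.11, adjusted p = 0.0384). The counted reads numbered 14856104 to 18294056 per library, so that the limit set by a count of 0, 3 reads, corresponds to 0.164 to 0.202 RPM (counting error only). Of 10 markers of stellate cells, all were at 1 RPM or more in every library, with a summed level of 6774 to 7168 RPM in the siLIX1L libraries and of 4029 and 11029 RPM in control 1 and 2. Of 6 hepatocyte markers only SERPINA1 reached 1 RPM in any library, and APOB and TTR had 0 reads in all 5 libraries. The chi-square per gene was 5.38 between siLIX1L 1 and 2 and 52.7 or above for every other pair, and the 2 controls stood 115 apart on this scale. The 6 leukocyte markers summed to 5.78 to 9.53 RPM in the siLIX1L libraries and to 11.2 and 37.8 RPM in control 1 and 2, most of it CD14. Endothelial markers summed to 5.18 to 9.07 RPM and to 9.88 and 4.86 RPM, and cholangiocyte markers, mainly SOX9, to 53.9 to 105 RPM and to 46.4 and 31.4 RPM.

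None of the 10 members passed the test between siLIX1L and control libraries. On log2(FPKM + 1), 6 members had at least 1 FPKM in at least 2 libraries and were tested with limma, and 0 passed an adjusted p of 0.05, against 1.87% of all 6464 genes tested; 3 of the 6 (BMP4, BAMBI and GREM1) had an unadjusted p under 0.05, as did 27.6% of all genes. FPKM was computed by the authors over the whole gene with its introns, which puts long genes such as BMPR1A and BMPR2 under this minimum, so the reads recovered from FPKM were tested with edgeR as well. With edgeR 9 members were tested and 0 passed, against 0.891% of 13026 genes, with an unadjusted p under 0.05 for 3 (BMP4, BAMBI and ID3), near the 25.8% of all genes with one; BMP2 had too few reads. DESeq2 on the same reads called 0 members too. The median edgeR log2 fold change (siLIX1L over control) of the 9 was -0.69, against -0.04 over all genes tested. This edgeR median rested on control 2: without that library the median of the 9 was 0.04, against 0.0028 over all genes. With limma the median difference of the 6 was -0.45. Without control 2 it was -0.22, against -0.01 over all genes in that fit. All of these are measurements of bulk RNA, in which fewer cells of a kind and less RNA per cell cannot be told apart.

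**Figure D1:**
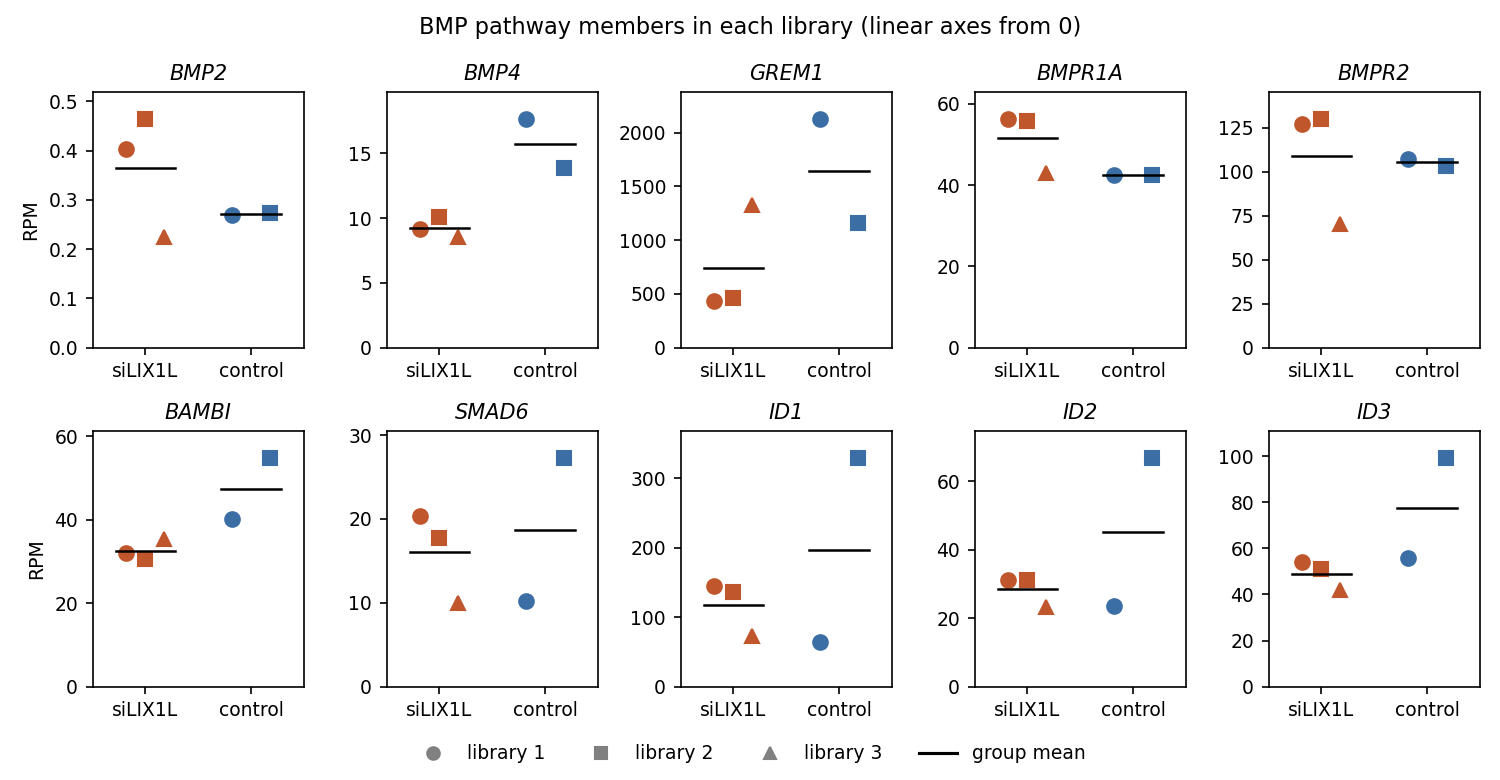
Level of each of the 10 members in RPM (linear axis from 0) in the 3 siLIX1L libraries (orange) and the 2 control libraries (blue); the marker shape gives the library number and the line the group mean. ID1, ID2, ID3, SMAD6 and BAMBI are highest in control 2, at 328, 66.7, 99.0, 27.2 and 54.7 RPM. BMP4, BAMBI and ID3 are lower in all 3 siLIX1L libraries than in both controls.

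Of the ligands, BMP4 (ENSG00000125378, GRCh38 chromosome 14, 53949736 to 53958761, minus strand) had the most reads of the 15 listed. It had 9.15, 10.1 and 8.53 RPM in siLIX1L 1, 2 and 3, against 17.6 and 13.9 RPM in control 1 and 2. The groups did not overlap, and the siLIX1L libraries lay within 2 RPM of each other. Over the pooled reads, 440 in the siLIX1L and 516 in the control libraries, the ratio was 0.592 (exact 95% counting interval 0.520 to 0.674). The limma difference on log2(FPKM + 1) was -0.44 (SE 0.12, adjusted p = 0.0826) and the edgeR log2 fold change -0.78 (SE 0.23, adjusted p = 0.104), so BMP4 missed the threshold in both. BMP2, the closest relative of BMP4, had 6, 7 and 4 reads in the siLIX1L libraries and 4 and 5 reads in the controls, a ratio of 1.31 with a counting interval of 0.553 to 3.34, so no difference was detectable at this depth.

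GREM1 (ENSG00000166923, GRCh38 chromosome 15, 32717974 to 32745107, plus strand), which encodes gremlin 1, a secreted protein that binds BMP2 and BMP4, was the member with the most reads. Its level was 434 and 464 RPM in siLIX1L 1 and 2 but 1323 RPM in siLIX1L 3, against 2123 and 1159 RPM in control 1 and 2. The value of siLIX1L 3 lay between those of the controls, 2.95-fold above the mean of the other 2 siLIX1L libraries, so the groups overlapped. The limma difference was -1.25 (SE 0.52, 95% interval -2.49 to -0.0015, adjusted p = 0.181), and with edgeR the log2 fold change was -1.14 (SE 0.52, adjusted p = 0.223). Without siLIX1L 3 the limma difference was -1.75 (adjusted p = 0.0831). A lincRNA, AC090877.2, overlaps GREM1 exons on the other strand in GENCODE 29, and the strand setting of the counts is unknown, so its reads could not be separated.

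BMPR1A, a type I receptor for BMP2 and BMP4, had 56.1, 55.7 and 42.8 RPM in siLIX1L 1, 2 and 3, against 42.5 and 42.4 RPM in control 1 and 2. All 3 siLIX1L values were above both controls, siLIX1L 3 by less than 1 RPM, and the edgeR log2 fold change was 0.26 (SE 0.20, 95% interval -0.20 to 0.73, adjusted p = 0.431). BMPR2, the type II receptor, had 127, 130 and 70.4 RPM in the siLIX1L libraries and 107 and 103 RPM in the controls. Its siLIX1L values lay on both sides of the controls, with siLIX1L 3 the lowest of all 5 libraries. The edgeR log2 fold change of BMPR2 was 0.03 (SE 0.27, 95% interval -0.62 to 0.68, adjusted p = 0.951), and its sign turned when siLIX1L 1 (-0.08) or siLIX1L 2 (-0.11) was left out.

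BAMBI (ENSG00000095739, GRCh38 chromosome 10, 28677342 to 28682939, plus strand) encodes a transmembrane protein that resembles a type I receptor without the kinase domain and so blocks signalling by BMP and TGF-β receptors. It had 32.0, 30.5 and 35.3 RPM in siLIX1L 1, 2 and 3, against 40.2 and 54.7 RPM in control 1 and 2. Every siLIX1L library was lower than both controls, and the pooled ratio was 0.680 (counting interval 0.633 to 0.729). The limma difference was -0.46 (SE 0.17, 95% interval -0.88 to -0.04, adjusted p = 0.154) and the edgeR log2 fold change -0.56 (SE 0.22, adjusted p = 0.174). Without control 1 BAMBI passed with both tools (limma difference -0.66, adjusted p = 0.0330; edgeR log2 fold change -0.78, adjusted p = 0.0335), in fits that called 24.1% and 22.4% of all genes tested and that take the lone control to vary like the siLIX1L libraries. Without control 2 the limma difference was -0.26 (adjusted p = 0.247). BMP4, BAMBI and ID3 were the 3 members of the 9 tested with edgeR in which every siLIX1L library was lower than both controls, a pattern seen in 21.8% of all genes tested; BMPR1A was the 1 member with the reverse pattern, seen in 22.2%.

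SMAD6, which competes for activated receptors and for SMAD4, had 20.4, 17.7 and 9.94 RPM in siLIX1L 1, 2 and 3, against 10.2 and 27.2 RPM in control 1 and 2. The controls differed 2.66-fold and, but for siLIX1L 3 at 9.94 RPM, enclosed the siLIX1L values. The edgeR log2 fold change was -0.27 (SE 0.47, 95% interval -1.37 to 0.84, adjusted p = 0.750), with 0.67 when control 2 was left out (adjusted p = 0.360) and -0.81 when control 1 was (adjusted p = 0.173).

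The 3 ID genes differed more between the 2 controls than between the group means. ID1 (ENSG00000125968, GRCh38 chromosome 20, 31605283 to 31606515, plus strand) had 145, 137 and 73.0 RPM in siLIX1L 1, 2 and 3, against 63.8 and 328 RPM in control 1 and 2. Control 1 was the lowest and control 2 the highest of the 5 libraries, 5.15-fold apart, with every siLIX1L value between them. ID1 was the only member placed in this way, as were 15.7% of all genes tested with edgeR. The limma difference of ID1 was -0.36 (SE 0.68, 95% interval -1.99 to 1.27, adjusted p = 0.761), an interval that holds differences of more than 2-fold in either direction. The edgeR log2 fold change, on read counts, was -0.78 (SE 0.62, 95% interval -2.25 to 0.69, adjusted p = 0.458). The ratio of the mean levels, 118 ± 39.3 RPM in siLIX1L (SD, n = 3) and 196 ± 187 RPM in control libraries (SD, n = 2), rests on control 2.

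ID2 (ENSG00000115738, GRCh38 chromosome 2, 8678845 to 8684453, plus strand) had 31.2, 31.1 and 23.2 RPM in siLIX1L 1, 2 and 3, against 23.5 and 66.7 RPM in control 1 and 2. Control 2 stood alone at the top, 2.84-fold above control 1, and control 1 lay beside siLIX1L 3. The limma difference of ID2 was -0.44 (SE 0.37, 95% interval -1.33 to 0.46, adjusted p = 0.484), and its edgeR log2 fold change was -0.70 (SE 0.42, adjusted p = 0.331). The antisense gene ID2-AS1 overlaps ID2 exons in GENCODE 29, and its reads could not be separated. ID3 (ENSG00000117318, GRCh38 chromosome 1, 23557918 to 23559794, minus strand) had 54.0, 51.1 and 41.9 RPM in the siLIX1L libraries, against 55.7 and 99.0 RPM in the controls. Here control 1 was above siLIX1L 1 by less than 2 RPM, and control 2 again stood apart, 1.78-fold above control 1. The limma difference of ID3 was -0.59 (SE 0.27, 95% interval -1.25 to 0.07, adjusted p = 0.218), and its edgeR log2 fold change was -0.69 (SE 0.29, adjusted p = 0.186).

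Which control was used decided the calls of the ID genes. Without control 1, ID2 and ID3 passed with limma (differences -1.09 and -0.996, adjusted p = 0.0256 and 0.0292) and ID1 did not (-1.53, adjusted p = 0.0627), in a fit that called 24.1% of all genes. With edgeR all 3 passed without control 1 (log2 fold change -1.52, -1.26 and -1.05 for ID1, ID2 and ID3, adjusted p = 0.0397, 0.0203 and 0.0219), where 22.4% of all genes did. Without control 2 the limma differences of ID1 and ID2 were positive, 0.81 and 0.22, and that of ID3 was -0.19 (adjusted p = 0.269, 0.457 and 0.542). Of the 9 members tested with edgeR, ID1, ID2 and SMAD6 were at least 2-fold higher in control 2 than in control 1, as were 7.82% of all genes tested, and no member was at least 2-fold lower, as were 8.64% of all genes.

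Other measures also differed between the libraries. The summed stellate markers were lowest in control 1 and highest in control 2 (4029 and 11029 RPM), like ID1, with the siLIX1L libraries between them, and reads of mitochondrially encoded genes took 1.08 to 1.29% in the siLIX1L libraries, 2.24% in control 1 and 3.35% in control 2; their part in the ID levels was not tested. COL1A1 and SPARC carried most of that sum. COL3A1 was placed in the same way, at 275 and 1043 RPM in control 1 and 2 and 662, 653 and 361 RPM in siLIX1L 1, 2 and 3. All the listed stellate markers except ACTA2 were highest in control 2. ACTA2, smooth muscle actin, had 8.89, 8.41 and 14.8 RPM in siLIX1L 1, 2 and 3, against 39.0 and 35.4 RPM in control 1 and 2. It fell with edgeR (log2 fold change -1.80, SE 0.30, adjusted p = 0.0497). ACTA2 was under 1 FPKM in every library and so was not tested with limma. Without siLIX1L 1, 2 or 3 edgeR called 0 genes, ACTA2 included. COL1A2 and THY1 were lower in every siLIX1L library than in both controls without passing (edgeR adjusted p = 0.0722 and 0.144). That pattern, which ACTA2 shared, was seen in 21.8% of all genes tested with edgeR. In the other listed stellate markers, COL1A1, COL3A1, PDGFRB, TIMP1, SPARC, VIM and LOX, the groups overlapped. Short transcripts as a class were lower in the siLIX1L libraries: the median limma difference was -0.25 over 1077 genes whose longest transcript was above 1 and up to 2 kb, -0.05 over 2685 genes above 2 and up to 4 kb, and 0.14 over 2162 genes above 4 and up to 8 kb. The longest transcripts of ID1, ID3, BAMBI and BMP4 measured 1.23, 1.25, 1.88 and 1.92 kb, in the first of these classes, and that of ID2 measured 2.04 kb, in the second. With the trend on transcript length and GC content removed from each library, the limma differences of ID1, ID2 and ID3 were 0.013, -0.28 and -0.25, those of BAMBI and BMP4 were -0.31 and -0.25, and that of GREM1 (14.6 kb) was -1.55, with adjusted p of 0.174 or above for each. ID1 thus changed sign in that setting.

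**Figure D2:**
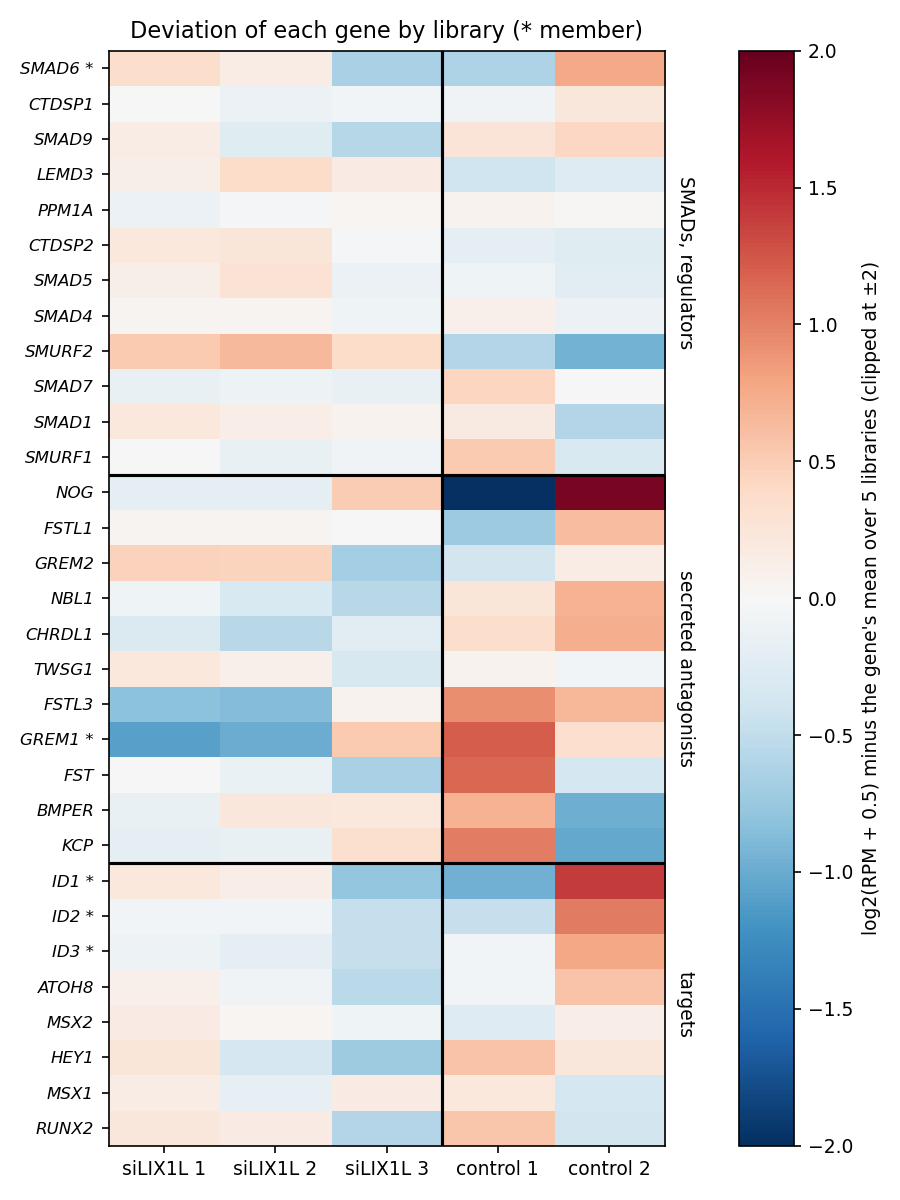
Colour gives log2(RPM + 0.5) minus the mean of that gene over all 5 libraries (columns, siLIX1L left of control; colours end at 2 and -2) for the SMADs and their regulators, the secreted antagonists and the targets tested with edgeR; members carry a star and rows within a block are ordered by control 2 minus control 1. ID1, ID2, ID3, SMAD6 and NOG are high in control 2, KCP, BMPER and FST are high in control 1, and SMURF2 is high in all 3 siLIX1L libraries.

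The wider pathway was read from a list of 72 genes that includes the 10 members. With edgeR 48 were tested: 1 rose, 0 fell and 47 did not pass, and with limma 22 were tested, of which the same gene rose and 21 did not pass. The median edgeR log2 fold change of the 48 was -0.13. That gene was SMURF2, a ubiquitin ligase that marks SMADs and receptors of the BMP and TGF-β branches for degradation. It had 201, 219 and 181 RPM in siLIX1L 1, 2 and 3, against 92.6 and 72.5 RPM in control 1 and 2. The groups stood well apart, with the lowest siLIX1L value far above the higher control. The limma difference was 0.66 (SE 0.11, adjusted p = 0.0463), and the edgeR log2 fold change 1.27 (SE 0.19, adjusted p = 0.0465). The limma call was lost without control 2 (adjusted p = 0.0544) and without siLIX1L 1, 2 or 3 (adjusted p = 0.168, 0.234 and 0.0715), and after correction for transcript length and GC content (adjusted p = 0.0744), always with a positive difference. The edgeR call was lost without siLIX1L 1, 2 or 3 (adjusted p = 0.143, 0.247 and 0.0832). With either tool the fits without siLIX1L 1, 2 or 3 called 0 of all genes tested, so these losses are not particular to SMURF2. The edgeR call was kept without control 2 (log2 fold change 1.14), and the log2 fold change without control 1 was 1.43.

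Among the 12 SMADs and regulators, all tested with edgeR, SMURF2 was the only one that passed; 6 had positive and 6 negative fold changes. SMAD5, the receptor-regulated SMAD with the most reads, was 141 ± 20.02 RPM in siLIX1L (SD, n = 3) and 118 ± 7.48 RPM in control libraries (SD, n = 2), and CTDSP2, a phosphatase, was 174 ± 17.2 and 135 ± 4.10 RPM. Of 13 receptors and co-receptors 10 were tested and none passed. ENG, or endoglin, a co-receptor, was 164 ± 28.5 RPM in siLIX1L and 153 ± 13.2 RPM in control libraries, and NEO1, which binds the RGM co-receptors, was 58.3 ± 5.69 and 54.3 ± 2.49 RPM. ACVR2B, a type II receptor of activins and BMPs named here after its values were seen, was higher in every siLIX1L library (21.9, 29.5 and 21.2 RPM) than in both controls (7.80 and 10.4 RPM) and missed the threshold (edgeR log2 fold change 1.38, SE 0.28, adjusted p = 0.0596). It passed with DESeq2 (adjusted p = 3.36e-04), which called 1673 genes. It also passed with edgeR without a low-count filter (0.0322), which called 514. With the replicate number as a block edgeR called 1146 genes, among them ACVR2B (0.00606). It did not pass with edgeR without siLIX1L 1, 2 or 3 (0.180, 0.274 and 0.0964), in fits that called 0 genes. Its edgeR log2 fold change was 1.18 without control 1 and 1.66 without control 2.

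Of 18 secreted antagonists 11 were tested with edgeR and none passed. Of the 11 fold changes 9 were negative, against 6867 of 13026 over all genes tested. Among the 9 were TWSG1 at -0.0012 and FSTL1 at -0.10, and with limma 4 of 6 were negative. FSTL1, a follistatin-like glycoprotein and the second most abundant in reads after GREM1, was 925 ± 21.7 RPM in siLIX1L and 969 ± 596 RPM in control libraries, with 548 RPM in control 1 and 1391 in control 2. TWSG1, a BMP-binding protein, was 341 ± 62.0 RPM in siLIX1L and 338 ± 20.9 RPM in control libraries. After their values were seen, NOG and FSTL3 were also picked out. NOG, which encodes noggin, had 45, 46 and 93 reads in siLIX1L 1, 2 and 3, against 7 reads in control 1 and 266 in control 2, so the controls were 30.9-fold apart in RPM and enclosed all siLIX1L values, as for ID1. FSTL3, a binder of activins, had 18.5, 17.9 and 34.5 RPM in the siLIX1L libraries, against 63.4 and 52.6 RPM in the controls, and missed the threshold (limma difference -1.12, SE 0.25, adjusted p = 0.0669), which it passed with DESeq2 (adjusted p = 0.00721).

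Of 15 ligands 4 were tested with edgeR and none passed. BMP8B was 2.41 ± 0.615 RPM in siLIX1L and 4.11 ± 3.15 RPM in control libraries and BMP7 was 1.59 ± 0.367 and 2.01 ± 0.293 RPM; BMP8A and BMP8B are near-identical copies, so their split of reads is uncertain. Of 11 targets 8 were tested and none passed. Of the 8 fold changes 6 were negative, against 6867 of 13026 over all genes tested. Those of ID1 and ID2 were positive without control 2 (0.91 and 0.30). RUNX2, a transcription factor of bone, was 59.1 ± 16.9 RPM in siLIX1L and 67.3 ± 29.7 RPM in control libraries. The E proteins that ID proteins bind did not pass either: TCF3 was 156 ± 7.49 RPM in siLIX1L and 167 ± 22.5 RPM in control libraries, TCF12 78.6 ± 15.6 and 63.3 ± 34.2 RPM, and TCF4 33.3 ± 2.31 and 34.2 ± 0.866 RPM. All SDs are over n = 3 siLIX1L and n = 2 control libraries.

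**Figure D3:**
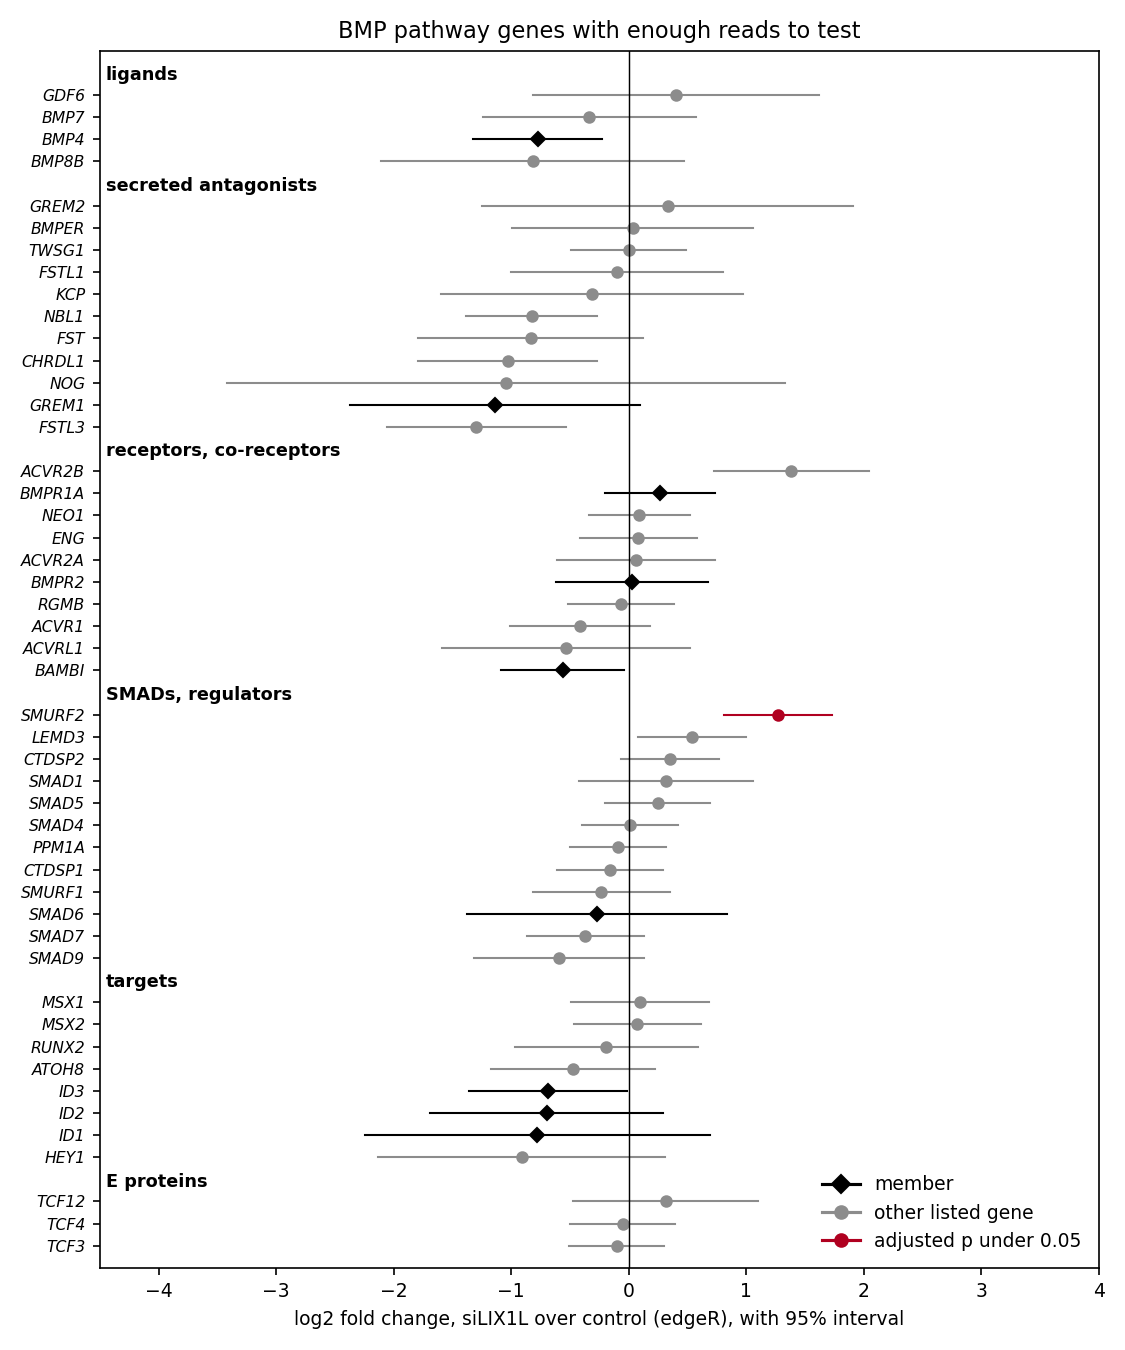
The edgeR log2 fold change (siLIX1L over control) with its 95% interval for the 48 genes of the BMP list that had enough reads, grouped by role; diamonds are members, circles other genes, and red marks an adjusted p under 0.05. SMURF2, at 1.27, is the only gene in red, and the intervals of ID1 and NOG are among the widest.

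Levels of different genes were compared as RPM per kilobase of the longest annotated transcript, which may not be the one these cells make. The order of the group means was the same in siLIX1L and control libraries: ID1, GREM1, ID3, BAMBI, ID2, BMPR2, BMP4, BMPR1A, SMAD6 and BMP2. ID1 averaged 95.8 ± 31.9 RPM per kb in siLIX1L and 159 ± 152 in control libraries, and GREM1 50.7 ± 34.6 and 112 ± 46.7. The values of ID1 and GREM1 overlapped in each group, so their order is not fixed by these libraries. BAMBI averaged 17.3 ± 1.30 RPM per kb in siLIX1L and 25.2 ± 5.45 in control libraries, BMPR2 9.51 ± 2.92 and 9.19 ± 0.234, and BMP4 4.83 ± 0.402 and 8.21 ± 1.37. BMPR1A and SMAD6 overlapped in both groups, while ID1 and ID3, GREM1 and ID3, BMP4 and BMPR1A, BAMBI and ID2, and BMPR2 and BMP4 overlapped in 1 group only. BMP2 was far below the others, at 0.101 ± 0.0345 RPM per kb in siLIX1L and 0.0753 ± 0.000874 in control libraries, and the antagonist GREM1 stood above the ligand BMP4 in every library.

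**Figure D4:**
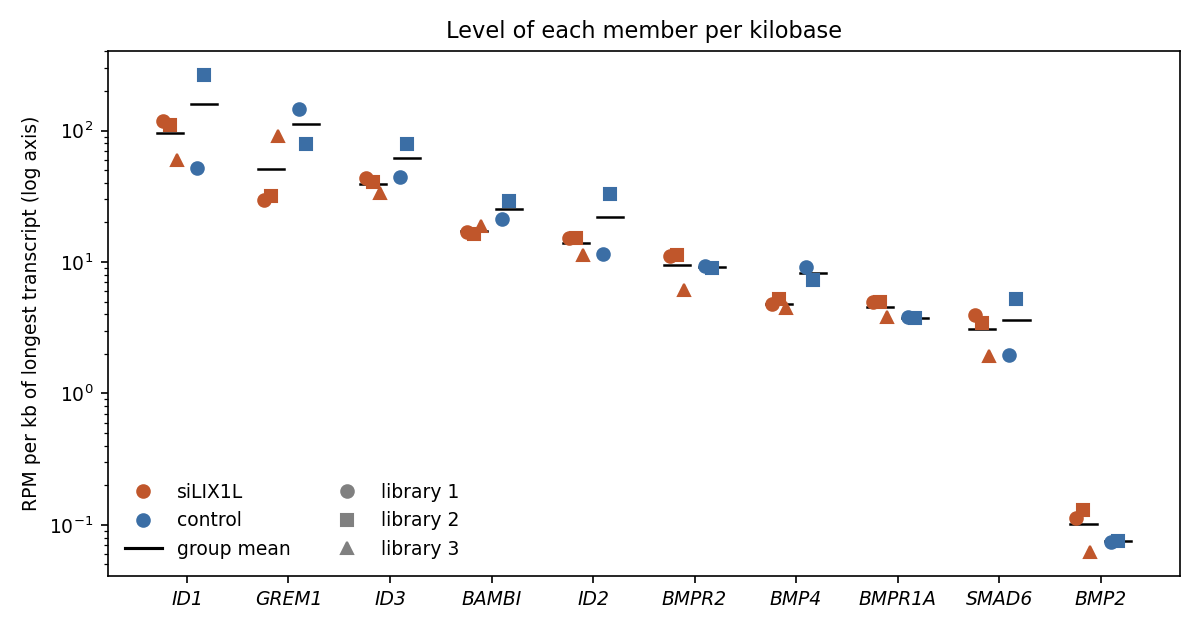
Level of the 10 members as RPM per kb of the longest transcript (log axis), in order of the control mean, with siLIX1L libraries (orange) left of control libraries (blue); marker shape gives the library number and the line the group mean. ID1, GREM1 and ID3 lie at the top, and BMP2, near 0.1 RPM per kb, at the bottom.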

How the data were processed

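RNA of LX-2 cells was sequenced 48 h after transfection, in 3 siLIX1L and 2 control libraries, assigned to groups by the labelled siRNA. FPKM per gene was deposited for each library, per the file headers. For siLIX1L 3 the authors also deposited each gene's length and raw read count. Bowtie 0.12.2 and the mouse build mm8 are named in the submitters' processing notes; the build conflicts with the human gene identifiers, so the build, the counting tool and the strand setting are uncertain. The lengths equal gene spans of GENCODE 29 (GRCh38) for 98.2% of genes found there, introns included, and coordinates of the members are from that annotation. FPKM times length gave whole reads (tolerance 0.01 reads) for 100% of values, equal to the deposited counts for all 19936 genes of siLIX1L 3; RPM is relative to their totals, 14856104 to 18294056 reads. Symbols were matched for 19808 genes.

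The main test was limma 3.58.1 in R 4.3.3 (two-sided, trend and robust, Benjamini-Hochberg over all genes tested, threshold 0.05, no covariates) on log2(FPKM + 1) for genes that reached 1 FPKM in 2 or more libraries; this scale understates changes of low genes. EdgeR 4.0.16 (quasi-likelihood, TMM, filterByExpr) and DESeq2 1.42.0 were run on the recovered reads. The edgeR SE is the coefficient divided by the square root of F. Pooled read ratios carry exact 95% conditional binomial (Clopper-Pearson) intervals, which cover counting error only. The limma and edgeR steps were tested on simulated data.

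The members, the list of 72 BMP pathway genes and the settings were chosen with earlier results of these data known. Named are the 10 members, LIX1L, listed genes past the threshold, and in each role the 3 genes with the highest mean RPM. Outside this rule ACVR2B, NOG, FSTL3, NBL1, KCP, BMPER, FST and single marker genes are named, chosen after their values were seen. A planned comparison of protein sequences was not made here.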

Additional observations from a re-analysis of the deposited data

How the results depend on the processing

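Of 236 recomputed values, 8 had the opposite sign to the reported one. The 236 include counts of genes, which have no sign. For members tested with limma they leave out the edgeR fits with 1 library left out, which are given below. The count of genes past limma's threshold (121) was 0 without a minimum level (3407 at an unadjusted p under 0.05), 233 with quantile normalization, 0 with siLIX1L 1 and 2 averaged (976 unadjusted), 2 with the length and GC trend removed, 1673 with DESeq2, 514 with edgeR without a low-count filter, and 0 to 1517 with 1 library left out (0 without siLIX1L 1, 2 or 3, with 1011, 882 and 1764 at an unadjusted p under 0.05, 258 without control 2 and 1517 without control 1). Of the 10 members 0 passed in the main test and, with limma, 1 with the replicate block and 0 to 3 with 1 library left out; with edgeR 1 passed with the block (GREM1 in both tools) and 0 to 4 with 1 library left out. Of the wider list (1 gene) 0 passed with limma without a minimum level, with a minimum of 5 FPKM, with siLIX1L 1 and 2 averaged and with the trend removed, and 0 to 6 with 1 library left out. With the replicate block 2 passed with limma (GREM1 and FSTL3) and 4 with edgeR (those and ACVR2B and SMURF2, the last at an adjusted p of 0.0683 with limma and 0.00198 with edgeR). Without a filter edgeR called 2 (ACVR2B and SMURF2) and DESeq2 called 4 (these, FSTL3 and NBL1); edgeR called 0 to 14 with 1 library left out. The cause was not tested.

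With the replicate number as a block, GREM1 passed (limma difference -1.75, adjusted p = 0.0479) and the edgeR value of SMAD6 was 0.15 in place of -0.27. No control carries number 3, so the block takes siLIX1L 3 out of the group comparison. That is the siLIX1L library in which GREM1 (1323 RPM) lay between the controls. The limma difference of GREM1 was also -1.75 with siLIX1L 3 left out. The labels share numbers 1 and 2 only, and the deviations of same-numbered libraries correlated at r = -0.12 and -0.09 across 13026 genes, which are not independent, so the numbers were not taken to pair the samples. The sign of ID1 turned with the length and GC trend removed (0.013), and that of BMPR2 with limma on log2(RPM + 0.5) (-0.0039). With 1 library left out, limma differences on log2(FPKM + 1) ran from -0.54 to -0.33 for BMP4, -0.66 to -0.26 for BAMBI, -1.75 to -0.82 for GREM1, -1.53 to 0.81 for ID1, -1.09 to 0.22 for ID2 and -0.996 to -0.19 for ID3. The edgeR log2 fold changes ran from -0.90 to -0.62 for BMP4, 0.20 to 0.37 for BMPR1A, -0.11 to 0.26 for BMPR2, -0.78 to -0.27 for BAMBI, -0.81 to 0.67 for SMAD6, -1.88 to -0.67 for GREM1, -1.52 to 0.91 for ID1, -1.26 to 0.30 for ID2 and -1.05 to -0.16 for ID3. No member passed with DESeq2, quantile normalization or edgeR without a filter. BMP2, at 4 to 7 reads a library, is limited by depth. With 2 controls that differed 5.15-fold for ID1, the number of libraries limits the ID genes. No protein comparison was run.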
